A study of Mus musculus with 14 samples.

Results

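Hotspots of meiotic recombination are short regions where the SPO11 complex cuts DNA in the germ line. In mice they are designated by PRDM9, whose zinc finger array reads a DNA motif and whose methyltransferase domain marks the nucleosomes beside it on histone H3. HELLS is a chromatin remodeler of the SNF2 family that acts with PRDM9, and where PRDM9 is inactive, double-strand breaks (DSBs) form instead at promoters and other regions that already carry H3K4me3. The break sites are seen by DMC1 ChIP-SSDS, which recovers single-strand DNA at resected ends through DMC1, the meiotic recombinase that coats it. Each peak is taken as a hotspot, and its score, here called its strength, follows the amount of DMC1-bound DNA there.

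The regions described are the strong autosomal hotspots of the control map at which the map of mice with Hells deleted in meiotic cells has no peak. They were chosen by measured values. A peak had to be in the upper part of the Hells CTRL list, at or above a fixed strength (the strength of the 1114 strongest of 11133 control peaks, chromosome X included), to lie on an autosome, and to have no Hells cKO peak center less than 400 bp from its own center. Of 934 strong autosomal control peaks, 321 had no such center (34.4%, exact 95% confidence interval 31.3 to 37.5) and are called missing. The other 613 had a partner and are called kept. Among autosomal control peaks of any strength, 9519 of 10397 (91.6%) were without a Hells cKO center, so a strong peak was listed in both maps more often than a control peak in general. The rule used both the control strength and the Hells cKO centers, and these shares are therefore a description.

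The Hells CTRL mice were Hells fl/Δ, with 1 floxed and 1 deleted allele and no Cre, and were 5 weeks old. The Hells cKO mice were Hells fl/Δ;Stra8-iCre, in which Cre is made from the Stra8 promoter in germ cells that enter meiosis, and were 9 weeks old. Both carried the Dom2 allele of Prdm9. The chromatin came from whole testis (2 testes per replicate for Hells CTRL and 3 for Hells cKO), and the authors merged the 2 replicates of each genotype into 1 list, so age cannot be told apart from genotype, no value can be given per mouse, and no test across mice was possible. The study saw weak HELLS staining in a minority of Hells cKO leptotene and zygotene nuclei, so some HELLS remained. It raises incomplete deletion in some spermatocytes as a possible reason. For peaks common to both maps and stronger in the control, the study favors activity in a smaller fraction of Hells cKO cells. This was not tested here. The authors state that the signals of the 2 genotypes were not normalized to each other, and read counts were not given with the lists, so the depth is unknown.

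The PRDM9 motif was learned from 9463 weaker autosomal control peaks, which are neither missing nor kept. The resulting matrix of 36 positions has the consensus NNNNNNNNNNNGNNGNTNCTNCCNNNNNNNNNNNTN, where a letter stands at positions at which 1 base reached a frequency of 0.6 and N stands for any base. A match, searched on both strands within 100 bp of the center, was a score above the level that 5% of windows 1000 bp away exceed, and 54.0% of the weaker peaks had one. The sequences below are those of the 6 strongest missing peaks with a match and of the 3 strongest kept peaks with one, to show the same site in both groups. Of the 20 strongest missing peaks, 10 had a match. They are from the GRCm38 reference, 5′ to 3′ on the strand of the match, with the 36 matched bases in capitals and 10 bases on each side.
Missing, beside Mfsd14a, chr3:116666544-116666599, minus strand: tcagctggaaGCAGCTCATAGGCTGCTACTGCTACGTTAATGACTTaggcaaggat
Missing, beside Arf6, chr12:69375295-69375350, minus strand: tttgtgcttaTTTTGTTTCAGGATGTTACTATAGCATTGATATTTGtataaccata
Missing, beside Rtkn2, chr10:67978257-67978312, minus strand: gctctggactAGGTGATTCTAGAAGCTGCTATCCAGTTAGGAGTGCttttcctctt
Missing, in Pex19, chr1:172128705-172128760, plus strand: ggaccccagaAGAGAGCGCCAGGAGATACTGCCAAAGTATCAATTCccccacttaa
Missing, in Crygs, chr16:22805381-22805436, plus strand: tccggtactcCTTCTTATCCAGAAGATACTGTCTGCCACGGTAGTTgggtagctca
Missing, intergenic, chr14:92355668-92355723, plus strand: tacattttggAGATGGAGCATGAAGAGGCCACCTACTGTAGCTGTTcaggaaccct
Kept, in Ankfn1, chr11:89611850-89611905, plus strand: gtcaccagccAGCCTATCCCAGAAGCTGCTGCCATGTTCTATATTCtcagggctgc
Kept, in Erbb4, chr1:68488976-68489031, minus strand: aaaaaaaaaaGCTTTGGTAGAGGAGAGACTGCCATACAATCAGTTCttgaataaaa
Kept, in Dennd1a, chr2:38137671-38137726, minus strand: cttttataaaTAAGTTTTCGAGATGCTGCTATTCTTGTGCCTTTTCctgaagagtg
In the order above, the control strengths were 1398, 1362, 1242, 866, 748 and 725 for the missing peaks and 2360, 2280 and 2189 for the kept ones, whose Hells cKO partners had strengths of 80, 77 and 91. The matrix scores were 17.5, 12.3, 17.7, 20.3, 17.6 and 12.4 against 24.5, 14.3 and 18.2, with a threshold of 9.95.

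Over the whole groups the site was found in similar shares of missing and kept peaks. A match was found in 199 of 321 missing peaks (62.0%, 56.4 to 67.3) and in 390 of 613 kept peaks (63.6%, 59.7 to 67.4), while 3.58% and 4.57% of their flanking windows had one. The best score had a median of 13.4 in both groups, and its site lay a median of 41 bp from the center in missing and 39 bp in kept peaks. At equal control strength the odds of being missing changed by a factor of 0.991 per SD of score (0.849 to 1.16, n = 934 peaks, likelihood ratio test, adjusted p = 0.908), an interval that leaves room for a modest effect either way. In the upper 3 of 10 strength classes few peaks were missing. There 8 of 17 missing peaks had a match (47.1%, 23.0 to 72.2) against 172 of 263 kept peaks (65.4%, 59.3 to 71.1), with overlapping intervals.

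Missing peaks were the weaker ones within the strong peaks. Their median strength was 401 (quartiles 361 and 466, highest 1398), against 574 in kept peaks (444 and 803, highest 5547). Together they held 8.76% of the summed strength of the control list, and the kept peaks 26.6%. In 10 classes of control strength of nearly equal size, the number missing was 72 of 97 in the weakest class (74.2%, 64.3 to 82.6), 61 of 92, 41 of 91, 48 of 95, 39 of 94 (41.5%), 27 of 91, 16 of 94 (17.0%), 7 of 93 (7.53%), 5 of 93 (5.38%) and 5 of 94 in the strongest (5.32%). The share thus went down over most classes and stayed near the same level over the upper 3. The odds of being missing were multiplied by 0.0581 for each doubling of control strength, a description like the shares.

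**Figure D1:**
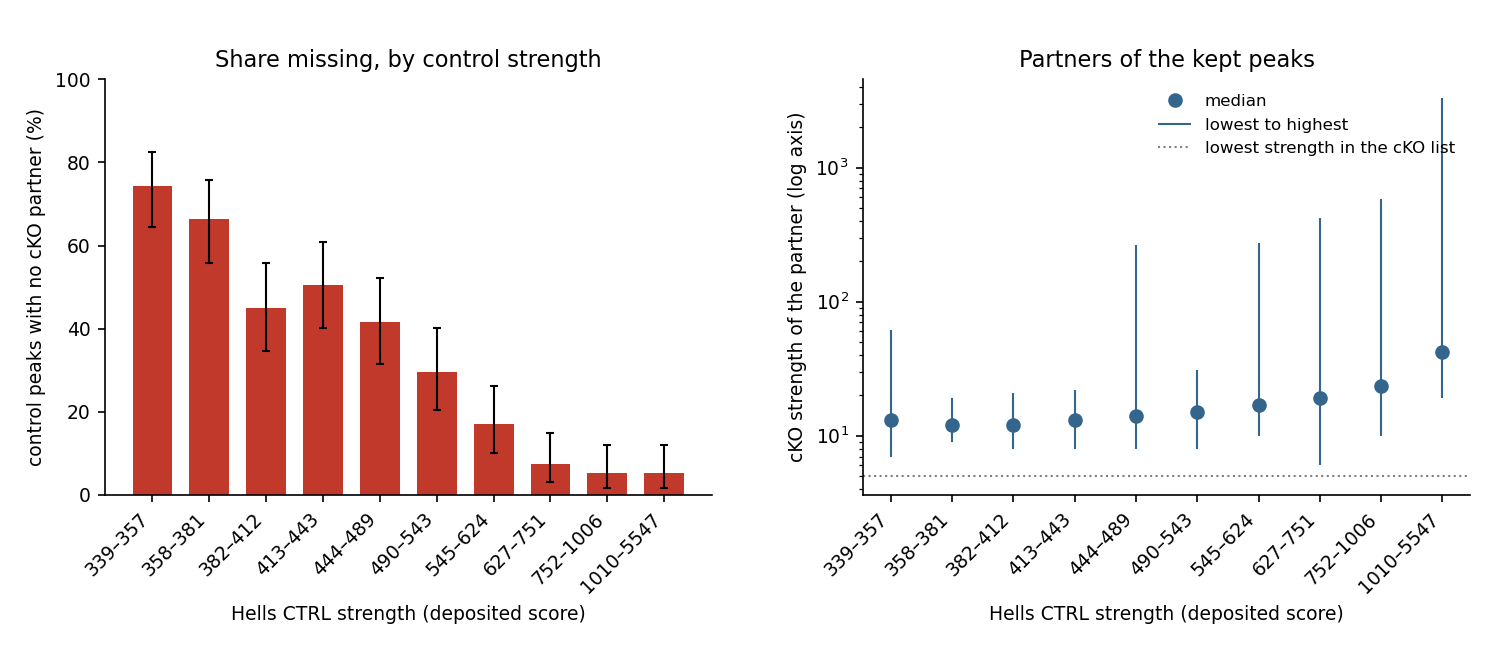
Left, the percent of strong autosomal Hells CTRL peaks with no Hells cKO partner (bars, with exact 95% intervals) in 10 classes of control strength, falling from 74.2% to 5.32%. Right, on a log axis, the Hells cKO strength of the partners of kept peaks in the same classes (points, medians; lines, lowest to highest), with a median of 13 in the weakest and 42 in the strongest class; the dotted line is the lowest strength in the Hells cKO list.

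The partners of the kept peaks were mostly in the lower part of the Hells cKO list, less so in the strongest classes. Their median strength was 17, where the list as a whole has a median of 31, a lower quartile of 18, a 10th percentile of 13 and a lowest value of 5, and 46 of 613 partners had a strength of at most 10. By class of control strength the median partner strength was 13, 12, 12, 13, 14, 15, 17, 19, 23.5 and 42. In the 4 weakest classes, where most missing peaks lie, the median partner stood between percentiles 9.48 and 12.3 of its list. In the ninth and the strongest class it stood at percentiles 38.9 and 62.8. The deposited control strength was a median of 33.4 times that of the partner (23.6 to 47.0 from the 10th to the 90th percentile), a ratio of scores that are not normalized to each other. The lists alone cannot tell whether a missing peak lacked DMC1 signal or had signal too low to be listed. The study looked at the signal itself and reported none detectable in Hells cKO over the peaks specific to the control. It did not give the strong ones apart.

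Values close to both limits were as follows. The 5 weakest missing peaks had strengths at the limit or 1 above it (chr16:13038617-13040358, chr6:8491406-8493159, chr9:44622074-44624267, chr13:18673079-18674834 and chr3:36829186-36830911). The 5 strongest unpartnered peaks under it had 336 to 338 (the strongest, chr6:88429186-88431429, in an intron of Eefsec). The missing peaks with the closest Hells cKO center lay 442, 455, 457, 468 and 550 bp from it, and the kept peaks with the farthest partner 380, 360, 351, 348 and 348 bp. Partners were mostly much closer, with a median of 74 bp and a 90th percentile of 213 bp.

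Most missing peaks of the 2 strongest classes lay beside a Hells cKO peak. The counts below use the centers that define missing and kept, so they are a description and no excess is read from them. Of the 10 missing peaks in the 2 strongest classes, 9 had a Hells cKO center within 5 kb, against 6 of the 177 kept peaks of those classes (for kept peaks, a center other than the partner). In the 4 pairs of classes below, from the weakest up, the share of missing peaks with such a neighbour was 9.77%, 11.2%, 13.6% and 26.1%, and that of kept peaks 1.79%, 1.03%, 0% and 2.44%. Over all classes, 47 of 321 missing peaks had one within 5 kb (14.6%, 11.0 to 19.0) and 12 of 613 kept peaks (1.96%, 1.02 to 3.39). Within 2 kb the numbers were 16 and 0, and within 10 kb 80 (24.9%) and 57 (9.30%). Seen from the neighbour, the share missing was 8 of 8 with another Hells cKO center within 1 kb, 8 of 8 from 1 to 2 kb, 31 of 43 from 2 to 5 kb (72.1%), 33 of 78 from 5 to 10 kb (42.3%) and 102 of 324 from 10 to 50 kb (31.5%). Beyond 100 kb it was 84 of 297 (28.3%, 23.2 to 33.8). From 5 kb outward the intervals overlapped.

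By class of control strength, the share missing among peaks with no such neighbour within 5 kb was 70 of 94 in the weakest class (74.5%), 5 of 88 in the eighth (5.68%), 1 of 87 in the ninth (1.15%) and 0 of 85 in the strongest, which allows a share of up to 3.53%. In the upper 3 classes together it was 6 of 260 without a neighbour (2.31%, 0.851 to 4.95) and 11 of 20 with one (55.0%, 31.5 to 76.9). In the other 7 classes it was 268 of 615 (43.6%, 39.6 to 47.6) and 36 of 39 (92.3%, 79.1 to 98.4).

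Both the rule and the spacing of listed peaks bear on all these counts. They use the Hells cKO centers that define missing and kept, were not tested, and support nothing beyond themselves: leaving out peaks with a neighbour removes 47 missing but 12 kept peaks. No pair of Hells cKO centers is closer than 1011 bp, only 0.409% of the Hells cKO peaks have another within 2000 bp and 2.33% within 5000 bp. A kept peak already has a partner at its center and can hardly have another in the first 1 kb, so the counts at the shortest distances are largely set by the rule and the list. The share of kept peaks with another center within 5 kb (1.96%) was close to that of Hells cKO peaks in general (2.33%). Both kinds of peak already hold a listed center, and no other Hells cKO center is closer to it than 1011 bp. A missing peak holds no such center and can have a neighbour at shorter distances. Its share (14.6%) is therefore not comparable with those shares, and no excess is read from it.

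**Figure D2:**
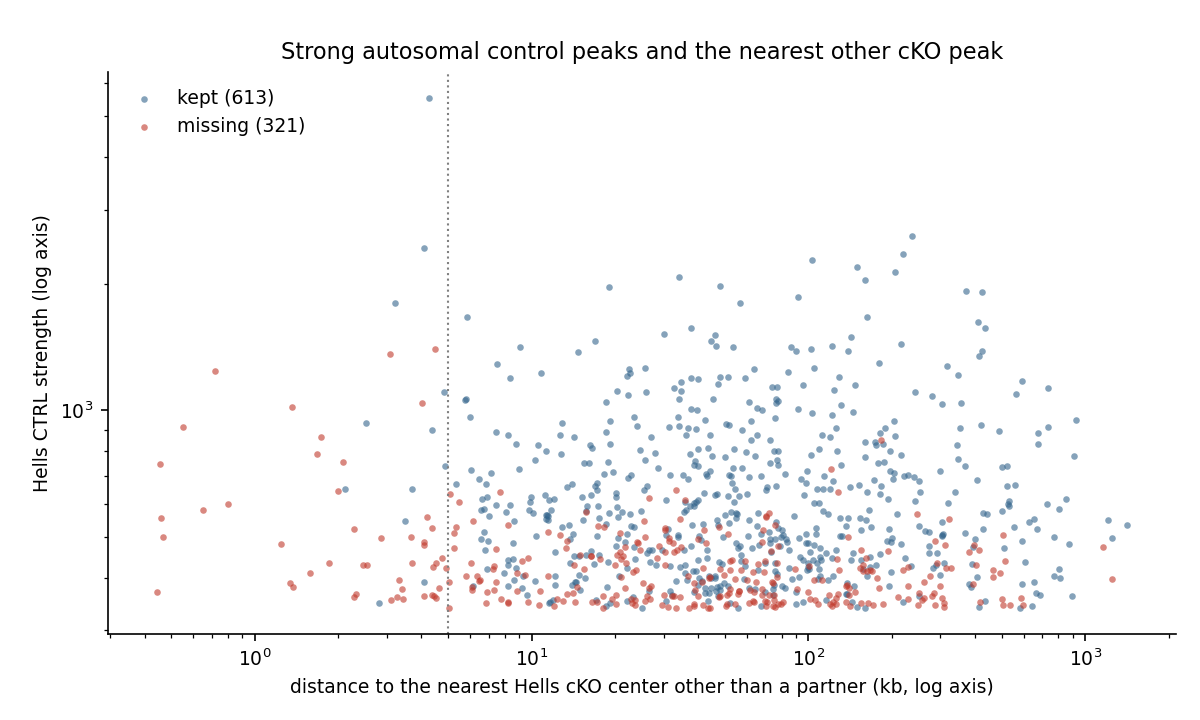
Each point is 1 strong autosomal control peak: distance to the nearest Hells cKO center other than a partner (x, kb, log axis) against Hells CTRL strength (y, log axis), in red for 321 missing and in blue for 613 kept peaks. The dotted line marks 5 kb: most of the strongest missing peaks are to its left, and to its right missing peaks crowd at the lower strengths.

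The 47 neighbours within 5 kb were mostly at start sites. A transcript start site lay within 1 kb of the center of 33 of them (70.2%), against 8 of the 12 neighbours of kept peaks (66.7%) and 10013 of 16321 autosomal Hells cKO peaks (61.4%). They had a median of 27 CpG dinucleotides within 250 bp, against 19 for the neighbours of kept peaks and 4 for the missing peaks themselves. Their median strength was 52 (13 to 189), against 48.5 for the neighbours of kept peaks and 30 for the autosomal Hells cKO list, and 8 reached 100. At 17 missing peaks the Hells cKO interval overlapped the control interval, and at 11 the control center lay inside it, with centers up to 1372 bp apart. These 11 Hells cKO intervals were broad (median width 2564 bp, 1620 to 3618), against a median of 1958 bp for the list. Part of that width follows from the selection, since only a broad interval can hold a control center far from its own.

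The strongest missing peak (chr3:116665609-116667628, strength 1398) lay in an intron of Gm43191, and 4484 bp away the Hells cKO list had a peak of strength 189 with its center 356 bp from a start site of Mfsd14a, a membrane transporter of the major facilitator superfamily. The next (chr12:69374287-69376386, strength 1362) was intergenic, 3073 bp from a Hells cKO peak of strength 134 at the start of Arf6, a small GTPase of membrane traffic, which had 75 CpG dinucleotides within 250 bp. The peak beside Rtkn2 (chr10:67977130-67979289, strength 1242) had its center inside a Hells cKO interval of strength 92 whose own center was 721 bp away. In these 3 pairs the Hells cKO center was within 1 kb of a start site. Each control peak had a match of the PRDM9 matrix, in this order 47, 14 and 75 bp from its center.

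Hells cKO peaks at start sites also lay beside strong missing peaks at genes of other roles. At Slc33a1, which carries acetyl-CoA into the endoplasmic reticulum, the control peak had strength 1043 (chr3:63967519-63969628) and the Hells cKO peak, 4006 bp away and 98 bp from the start site, 75. At the ubiquitin ligase gene Arih1 the intronic control peak had 1017 (chr9:59483678-59485547) and the Hells cKO peak 1365 bp away 76. At Pex19, whose product brings proteins to the peroxisome membrane, the control center was in a coding exon (chr1:172127594-172129867, strength 866), 1736 bp from a Hells cKO peak of 80. At Dynlrb1, a light chain of dynein, the control peak had 788 (chr2:155233749-155235972), and the Hells cKO center was 1684 bp from it and 10 bp from the start site, with strength 59. At Sec22a, of the family of vesicle trafficking proteins, the values were 753 (chr16:35360457-35362524) and 52, at 2081 bp. Each of these Hells cKO peaks lay within 250 bp of a start site. Of the 5 control peaks, only that in Pex19 had a matrix match, and the scores were 0.917 at Slc33a1, 5.28 at Arih1, -1.82 at Dynlrb1 and -3.55 at Sec22a.

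Other strong missing peaks had a Hells cKO center just outside the partner limit that was not at a promoter. In an intron of Hcfc2 the control peak had strength 913 (chr10:82705185-82707442) and the Hells cKO center, 550 bp away and 7653 bp from the start site, had 20. In a coding exon of Crygs, a lens crystallin gene, the control peak had 748 (chr16:22804380-22806333) and the Hells cKO center, 455 bp away, 34. With partners up to 1000 bp apart, 313 peaks were missing. The 8 peaks that change their call include these and the peak beside Rtkn2, and at 3 of the 8 the Hells cKO center was within 1 kb of a start site.

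Most of the others among the 20 strongest missing peaks had no Hells cKO center within 5 kb. The peak of strength 852 (chr1:31404634-31406885) was intergenic, with the nearest Hells cKO center 183231 bp away, no CpG dinucleotide within 250 bp and no matrix match (best score 6.14). The peak of strength 725 (chr14:92354459-92356840) was intergenic with the nearest Hells cKO center at 120910 bp, and had a match of score 12.4. Between strengths 605 and 648, the peaks in Cenpc1, a centromere protein gene, and in Mapk9, a stress-activated kinase gene, were 33298 and 26669 bp from the nearest Hells cKO center. Those in Cul9 (7704 bp), Ube3a (5077 bp, beside a Hells cKO peak of 242 at the gene's start) and Dusp4 (5463 bp) were just past the 5 kb limit, and the one in BC065403 was inside it, at 2005 bp. The intergenic peak of strength 641 on chromosome 18 (127919 bp) and the one in Edaradd (35923 bp) completed the 20 strongest.

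The rule did not use the distance to annotated start sites, but that distance is not independent of it. Of autosomal Hells cKO centers, which define the groups, 61.4% lay within 1 kb of a start site. A start site lay within 1 kb of the center in 23 missing (7.17%) and 45 kept peaks (7.34%), with an odds ratio at equal strength of 1.27 (0.687 to 2.35, n = 934, likelihood ratio test, adjusted p = 0.693). Reaches of 5 and 10 kb were added after the neighbours had been seen, and the adjusted p-values do not account for that choice. Within 5 kb the numbers were 108 of 321 (33.6%) and 145 of 613 (23.7%), odds ratio 2.14 (1.50 to 3.05, n = 934, likelihood ratio test, adjusted p = 0.000236), and within 10 kb 167 (52.0%) and 254 (41.4%), odds ratio 1.82 (1.33 to 2.49, adjusted p = 0.00195). With 10 strength classes in place of log2 strength the ratio at 5 kb was 2.19 (1.52 to 3.14, n = 934, adjusted p = 0.000205). Among the 875 peaks with no other Hells cKO center within 5 kb it was 1.58 at 5 kb (1.06 to 2.36, n = 875, adjusted p = 0.152) and 1.45 at 10 kb (1.03 to 2.04, adjusted p = 0.193). That subset is set by the Hells cKO centers that also define the groups, so the smaller ratios do not show whether the neighbours account for the difference. By distance, the share missing was 33.8% within 1 kb, 39.2% from 1 to 2 kb, 48.5% (65 of 134, 39.8 to 57.3) from 2 to 5 kb, 35.1% from 5 to 10 kb and 26.9% beyond 100 kb.

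**Figure D3:**
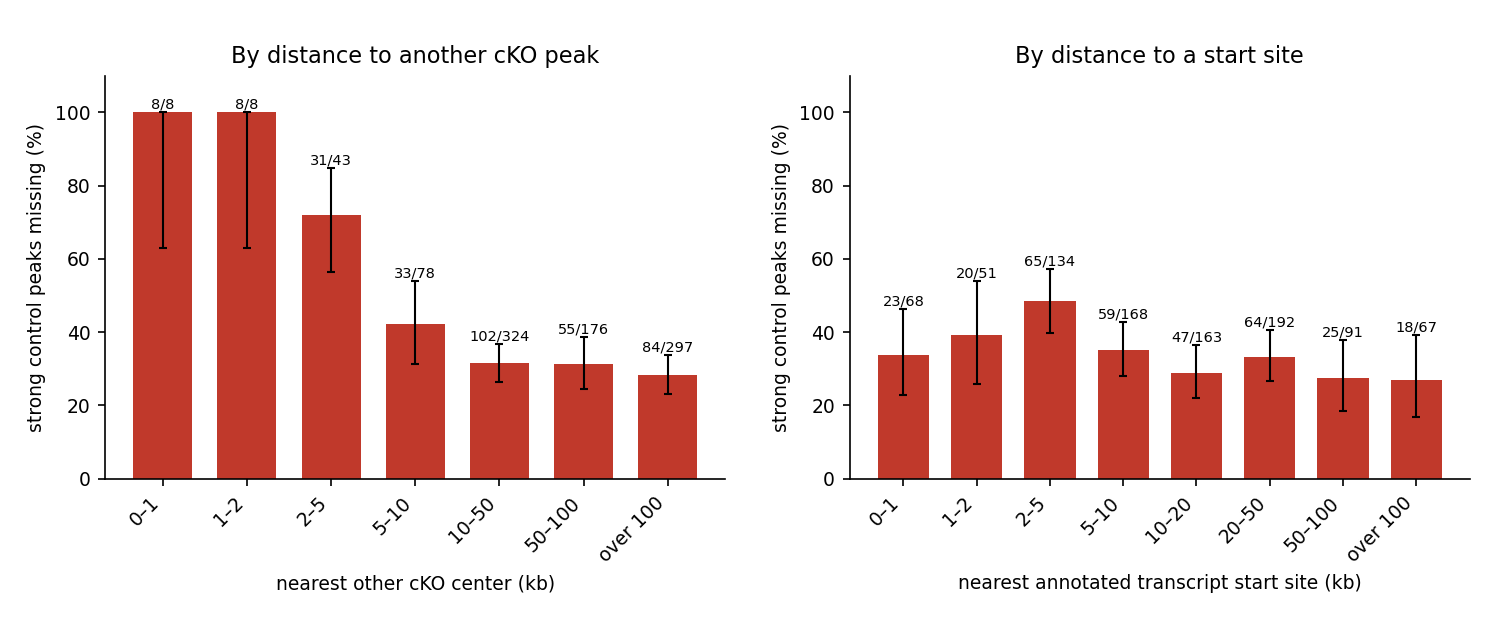
The percent of strong autosomal control peaks that were missing (bars, with exact 95% intervals and the counts above them) by distance to the nearest Hells cKO center other than a partner (left) and by distance to the nearest annotated transcript start site (right). The left bars fall from 8 of 8 to 84 of 297 (28.3%); the right bars are highest from 2 to 5 kb (65 of 134).

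No feature in the planned set, the start site within 1 kb included, set missing from kept peaks past the threshold. With control strength in the fit, 0 of 11 features had an adjusted p under 0.05 (likelihood ratio test, logistic regression), and 1 had an unadjusted p under 0.05. That was the distance to the nearest other control peak, with a median of 72.2 kb in missing and 76.6 kb in kept peaks and an odds ratio per SD of 0.839 (0.717 to 0.983, n = 934, unadjusted p = 0.0287, adjusted p = 0.255). Base composition was nearly equal. GC content within 250 bp had a median of 41.5% in missing and 41.3% in kept peaks (odds ratio per SD 0.983, 0.840 to 1.15, n = 934, adjusted p = 0.908), CpG dinucleotides a mean of 4.28 and 4.33 (1.04, 0.890 to 1.23, adjusted p = 0.725), and repeat-masked sequence a median of 16.0% and 16.6% (0.932, 0.793 to 1.09, adjusted p = 0.693). At least 6 CpG dinucleotides were found at 97 missing (30.2%) and 179 kept peaks (29.2%).

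Apart from the distance to start sites given above, place in the genome differed little as well. The center was in an intron in 186 missing peaks (57.9%), intergenic in 109 (34.0%), in a coding exon in 13, in a UTR in 7 and in a noncoding exon in 6, against 328 (53.5%), 228 (37.2%), 25, 12 and 20 of the kept peaks. It lay in a protein-coding gene in 197 missing (61.4%) and 340 kept peaks (55.5%, odds ratio 1.32, 0.964 to 1.81, n = 934, adjusted p = 0.255). In 5 pairs of strength classes from the weakest up, the share in a coding gene was 58.6%, 58.4%, 68.2%, 73.9% and 50% of missing and 69.6%, 50.5%, 46.2%, 58.5% and 57.1% of kept peaks, so its direction was not the same throughout. Peak width had a median of 1894 bp in missing and 1968 bp in kept peaks (odds ratio per SD at equal strength 1.16, 0.975 to 1.39, n = 934, adjusted p = 0.255). By chromosome the share missing ran from 10 of 39 on chromosome 12 (25.6%) to 11 of 24 on chromosome 19 (45.8%), with overlapping intervals.

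**Figure D4:**
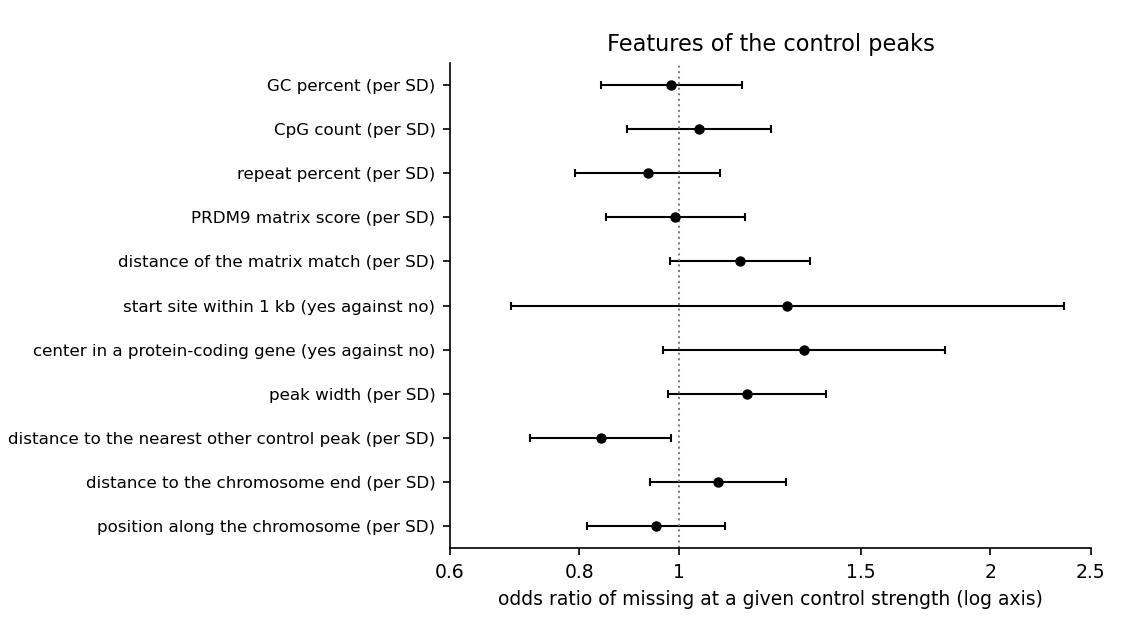
Odds ratios of being missing (points, with 95% intervals, log axis) for 11 features of the strong autosomal control peaks, each fitted with log2 control strength; numeric features are per SD. All intervals but that of the distance to the nearest other control peak cross 1 (dotted line), and that one has an adjusted p of 0.255.

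Missing peaks were spread over many genes. They lay in 201 protein-coding genes and kept peaks in 329, with 14 genes in both. Genes with more than 1 missing peak were Lmbr1, a membrane protein gene whose intron holds the limb enhancer of Shh, and Snd1, which encodes a nuclease-domain coactivator. In Lmbr1 the peaks had strengths of 520 (chr5:29263509-29265384) and 352 (chr5:29314709-29316366), and no kept peak. In Snd1 they had 381 (chr6:28816985-28818950) and 361 (chr6:28865969-28867868), beside a kept peak of 774 in the same gene (chr6:28671882-28673957) whose partner had a strength of 16. All 4 missing peaks of these genes were under the median strength of kept peaks (574). None of 29 autosomal genes of a list of meiotic DSB and recombination factors, among them Prdm9, Hells, Spo11, Dmc1 and Hormad1, held the center of a strong control peak, where 2.48% of all autosomal protein-coding genes (516 of 20780) did, so that a count of 0 says nothing particular about these genes.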

How the data were processed

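DMC1 ChIP-SSDS peak lists of Hells CTRL and Hells cKO testes were analysed, 1 per genotype. The authors mapped reads trimmed to 50 bp (Phred above 28) to the mouse build GRCm38 (mm10), kept uniquely mapped, non-duplicated reads, called peaks with MACS (2.0.10) and merged replicates by Irreproducible Discovery Rate. The deposited score of each peak (strength) is a whole number. The methods describe a fragment count corrected for local background and library size, but whether the last step is included is unknown. The 5hMeDIP libraries were not analysed here.

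Centers were interval midpoints. Strong peaks had a strength of at least 339, and a partner was a Hells cKO center at most 399 bp away. The members and lists were chosen with earlier results of these data known. Annotation was GENCODE M21, and sequence GRCm38.p6. Features were tested by logistic regression with log2 control strength, two-sided likelihood ratio tests and Benjamini-Hochberg adjustment over 11 features. Peaks are not independent replicates, so the p-values describe these lists and not mice. Shares carry exact 95% intervals by the Clopper-Pearson method, for counting error alone. The limit on a share of 0 is 3 counts of the total. Regions named were the 20 strongest missing and 10 strongest kept peaks, 5 on each side of both limits, genes with at least 2 missing peaks and the genes of the list. Sequences shown are the 6 strongest missing and 3 strongest kept peaks with a match, off chromosome 18. The code was tested on simulated data. Python 3.11.15, pandas 2.3.3, scipy 1.17.1 and statsmodels 0.14.6 were used.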

Additional observations from a re-analysis of the deposited data

How the results depend on the processing

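With 1 merged list per genotype, replicates could not be left out in turn. No paired analysis was possible because the replicates of each genotype were merged into 1 list before deposit. The limits also include unequal ages, scores that are not normalized between genotypes and an unknown read depth.

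The number missing was 396, 313 and 304 when partners were centers under 200 bp apart, under 1000 bp apart or overlapping intervals. It was 831 (89.0%) when only Hells cKO peaks at or above their median strength counted and 54 (12.1%) at strengths of 500 and above. The percent missing was 42.4 under 200 bp, 39.0 for the strongest 10% of the autosomal list and 31.3 without peaks with another Hells cKO center within 5 kb (added after seeing the data).

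Features past the threshold numbered 2 with the stronger Hells cKO peaks, repeat percent (n = 934, odds ratio 0.584, adjusted p = 0.00298) and CpG count (0.636, adjusted p = 0.00407), the second in the opposite direction. The number was 1 without strength in the fit, peak width (n = 934, odds ratio 0.688, adjusted p = 5.75e-06), also in the opposite direction, and 1 in each fit with a start site within 5 kb (2.14, or 2.19 with 10 strength classes) or 10 kb (1.82), all chosen after seeing the data. The cause was not tested. Ratios that crossed 1 without passing the threshold were, with the stronger Hells cKO peaks, matrix score 1.37, start site 0.565, coding gene 0.542, width 0.870, other control peak 1.12, chromosome end 0.973 and position 1.07. At strengths of 500 and above they were GC 1.17, repeats 1.05 and match distance 0.860. Without strength they were GC 1.06, CpG 0.985 and start site 0.974. CpG count was 0.978 under 200 bp and 0.994 by overlap, and matrix score 1.01 under 1000 bp, 1.04 by overlap and 1.02 without the near peaks. The other 168 alternatives were labelled unchanged. For a feature this means the same direction and side of the threshold. For a count or share missing it means a value near the main one. For the number of features past the threshold it means the same number. Where a setting altered only some features, the fits of the others were identical repeats and add nothing.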

Other observations

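Strong control peaks on chromosome X, which the rule leaves out, were missing less often than autosomal ones (40 of 180, 22.2%), and were stronger (median 733). Below the autosomal median strength the share missing was 24 of 45 on chromosome X (53.3%, 37.9 to 68.3) and 260 of 466 on the autosomes (55.8%, 51.2 to 60.4). At or above it the shares were 16 of 135 (6.93% to 18.5%) and 61 of 468 (10.1% to 16.4%). Within both ranges of strength the intervals overlapped.

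Among the 10 strongest kept peaks, 3 had partners of a far higher strength than the rest. They were at Gm10800 (control strength 5547, partner 3299), Gm21738 (2604, partner 1275) and Gm10801 (2430, partner 1507). None of these 3 had a match of the PRDM9 matrix (scores 4.98, 3.38 and 1.77). The peaks at Gm10800 and Gm10801 were 4197 bp apart, and the partner of each counted as a neighbour within 5 kb of the other. Among the other 7, the peak at chr10:92679641-92682140 also had no match (score 2.04). The partners of the other 7 had strengths of 53 to 97.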
